A study of Rattus norvegicus with 196 samples.

Results

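The machinery that moves membrane vesicles between the endoplasmic reticulum, Golgi, endosomes and synapse was followed through the rat brain in 44 transcripts, with and without chronic fluoxetine. The members were the transcripts whose gene names begin with the symbols of Rab, Arf, Arl, Vps, Snx, Stx, Syt, Vamp, Sec, Trappc, Chmp, Tmed, adaptor or coatomer subunits in a list that the study made of transcripts differing between treated and control rats in these same libraries. That list was ranked by the number of regions concerned, and its top 1989 of the 29188 transcripts counted were used. The comparison of treated and control rats therefore chose the members, and its values and calls are given below as a description from which nothing is read, whereas the differences between regions of control rats played no part in the choice.

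Bulk RNA-seq was made from 25 brain regions of male Long-Evans rats. The rats were 2 months old when assigned to a group and were killed after 6 weeks. The fluoxetine group (FT) received the serotonin reuptake inhibitor at 18 mg/kg per day in drinking water for 6 weeks, and the Sham group received water. Each sample pooled tissue punches of 1 region from 10 animals, with 40 animals per treatment and replicates numbered 1, 3, 4 and 5, for 196 libraries (98 FT and 98 Sham). The labels give no transgene or lesion, and both groups were naive animals rather than a model of depression.

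Small GTPases of the Rab, Arf and Arl families switch on a membrane and recruit coats, which bud a vesicle and gather its cargo. Tethers such as the TRAPP complexes catch the vesicle at its target, and SNARE proteins fuse it, at the synapse under the control of calcium-sensing synaptotagmins. Sorting nexins, VPS and ESCRT proteins sort what has been taken up by endosomes towards recycling or the lysosome, and neurons lean on all of these steps to supply distant axons and to release transmitter.

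Promoter sequences, 250 bases before to 50 bases after the annotated start, were taken from RefSeq on the GRCr8 assembly and matched 37 of the 44 members. Shown here are the promoters of the 2 matched members with the highest and the 2 with the lowest median FT-to-Sham fold change, read on the strand of the gene. Capitals mark the letters searched on both strands: the GC box GGGCGG or CCGCCC, the CCAAT box CCAAT or ATTGG, the TATA box TATAAA or TTTATA, the E-box CACGTG and the short cAMP response site TGACG or CGTCA, where overlapping copies were each counted.
Vps37c (chr1:216761394-216761693, plus strand): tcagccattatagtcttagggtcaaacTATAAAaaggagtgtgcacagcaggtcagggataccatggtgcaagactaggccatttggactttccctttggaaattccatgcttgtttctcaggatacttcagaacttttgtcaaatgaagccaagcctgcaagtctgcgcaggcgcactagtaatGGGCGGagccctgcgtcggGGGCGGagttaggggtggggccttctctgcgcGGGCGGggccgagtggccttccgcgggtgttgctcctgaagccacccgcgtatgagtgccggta
Snx8 (chr12:19365505-19365804, plus strand): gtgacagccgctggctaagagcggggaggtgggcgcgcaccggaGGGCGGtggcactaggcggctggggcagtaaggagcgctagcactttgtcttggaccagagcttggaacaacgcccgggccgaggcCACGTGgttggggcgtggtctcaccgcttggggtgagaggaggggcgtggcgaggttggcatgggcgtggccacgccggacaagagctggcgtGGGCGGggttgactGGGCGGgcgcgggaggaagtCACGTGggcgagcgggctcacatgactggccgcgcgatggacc
Sec23a (chr6:82440855-82441154, minus strand): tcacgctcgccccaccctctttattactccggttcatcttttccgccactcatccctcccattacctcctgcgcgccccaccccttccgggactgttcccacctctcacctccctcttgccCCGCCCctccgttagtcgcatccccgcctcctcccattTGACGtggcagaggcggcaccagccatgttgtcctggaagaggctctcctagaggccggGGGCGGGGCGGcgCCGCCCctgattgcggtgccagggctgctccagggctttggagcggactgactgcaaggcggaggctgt
Syt11 (chr2:176529726-176530025, minus strand): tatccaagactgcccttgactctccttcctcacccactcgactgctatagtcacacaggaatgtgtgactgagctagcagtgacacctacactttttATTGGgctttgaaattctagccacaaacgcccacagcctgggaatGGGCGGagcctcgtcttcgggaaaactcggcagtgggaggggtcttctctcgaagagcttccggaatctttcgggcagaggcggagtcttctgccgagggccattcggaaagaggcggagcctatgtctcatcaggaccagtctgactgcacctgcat

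These promoters were GC rich, as were those of the members in general. Vps37c, an ESCRT-I subunit, had 3 GC boxes and the only TATA box among the 37 members. Snx8, a sorting nexin of endosome-to-Golgi traffic, had 3 GC boxes and 2 E-boxes. Sec23a, the inner COPII coat subunit, had 4 GC boxes, of which 2 overlapped, and 1 short cAMP response site. Syt11, a synaptotagmin that does not bind calcium, had 1 GC box and 1 CCAAT box on the opposite strand.

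Across the 37 member promoters the GC box occurred in 32, or 86.5%, against 64.9% of the 1389 promoters found for the study's whole list and 33.1% of all 33469 promoters. The CCAAT box occurred in 17 (45.9%, against 36.9% and 37.5%) and the short cAMP response site in 12 (32.4%, against 33.3% and 21.2%). The full cAMP response element TGACGTCA, which contains the short one, occurred in 0 of 37 and in 1.83% of all promoters. E-boxes were found in 3 members, Arf5, Arl2 and Snx8 (8.11%, against 9.86% and 6.42%). The TATA box share of 2.70% stood beside 7.42% and 14.2%. Median GC content was 62.0% in members, 61.3% in the study's list and 51.7% over all promoters, so the members lay near the list they came from. These shares describe letters in a window and no binding was measured. Some members are also neighbours in the genome: the starts of Sec23a and Trappc6b lay 46.0 kb apart on chromosome 6, those of Rab9a and Trappc2 37.0 kb apart on chromosome X, and those of Ap1m1 and Rab8a 73.0 kb apart on chromosome 16.

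Reads on transcripts ranged from 4586 to 50893913 per library, with a median of 11921178, and the members together took 0.122% to 0.873% of them. The shallowest library, Nts (nucleus tractus solitarius) Sham replicate 3 with 4586 reads, was kept in the paired comparison of that region and left out of the comparison of regions. The ILC (infralimbic cortex) Sham library of replicate 3 had 543403 reads. Replicate 3 stood apart in composition: its 50 most counted transcripts took a median of 68.2% of reads, against 34.8%, 29.9% and 28.3% in replicates 1, 4 and 5. By correlation over 5837 transcripts, 173 of the 196 libraries were nearest to other libraries of their own replicate number. Of the 23 that were not, 19 carried number 4 or 5 and were nearest to the other of these numbers, including all 12 such libraries of the raphe, LC (locus coeruleus) and Nts. The ILC Sham library of replicate 1 was nearest to replicate 3 (r = 0.674, against 0.556 with replicate 1). So were CGC (cingulate cortex) FT replicate 1 (0.711, against 0.644) and mPoA (medial preoptic area) Sham replicate 5 (0.194, against 0.111 with replicate 5). The shallow Nts Sham library of replicate 3 was nearest to replicate 5. The CGC pair of replicate 1, taken here to be the outlying replicates of that region that the study removed without giving their number, was left out of all fits and kept in the ratios within pairs. Arc (arcuate nucleus) and mPoA had only the pairs of replicates 4 and 5, since Arc Sham and mPoA FT lacked replicates 1 and 3, which left 96 complete pairs with that of CGC.

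Differences between FT and Sham are given as log2 fold change (log2FC) with its standard error from edgeR, fitted within each region on all transcripts with the replicate number as a block. Following the study's cut-offs, a transcript was called when its absolute log2FC reached 0.32 and its Benjamini-Hochberg adjusted p was at most 0.1. All 44 members passed the filter on low counts in all 25 regions. By this rule 25 of the 1100 combinations of member and region were higher in FT and 35 lower, while over all transcripts 1.01% of 334878 combinations were called higher and 0.913% lower. DESeq2, the tool of the study, called 85 higher and 92 lower, with 1.19% and 0.803% of its 559355 combinations. As the same contrast chose the members, nothing is read from these counts.

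The members did not move as a block. Over the 25 regions 24 members had a positive median log2FC and 20 a negative one, and 6 were positive in every region (Rab24, Vps37c, Ap3s2, Arl3, Rab40c and Stx4) while 4 were negative in every region (Rab1b, Syt11, Stx7 and Rab13). The same sign in every region was thus found for 22.7% of the members, against 7.02% of the 11365 transcripts tested in all regions. Of those transcripts 53.3% had a positive median. The median of the members' medians was 0.19, against 0.02 over the same transcripts. An absolute median above 0.5 was found for 14 of the 44 members and for 11.6% of those transcripts. These were the values that the choice favoured.

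Among the 11 Rab GTPases, 4 had positive and 7 negative medians. Rab24, which takes part in autophagy, had a median log2FC of 0.66, ranging from 0.06 in ILC to 1.38 in Arc. Rab40c, a Rab with a SOCS box that joins ubiquitin ligases, had 0.47, and Rab3a, the main synaptic vesicle Rab, 0.30. Rab2b of the Golgi had 0.24. At the other end stood Rab1b, which drives transport from the endoplasmic reticulum to the Golgi, at -0.97, ranging from -1.89 in the raphe to -0.09 in LS (lateral septum). Rab9a and its paralog Rab9b, which return cargo from late endosomes to the trans-Golgi network, had -0.59 and -0.30. Rab13 of cell junctions had -0.49 and Rab27b of secretory granules -0.46, while Rab8a of exocytic traffic and Rab4b of recycling endosomes stood near 0 at -0.13 and -0.01. Rab1b has close paralogs, so reads that could not be placed uniquely may affect its level.

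The 4 Arf and Arl GTPases split between 3 positive and 1 negative median. Arl3, which releases cargo in cilia, had 0.60 and was higher in 86 of 96 pairs. Arl2, a regulator of tubulin folding, had 0.43 and reached 1.48 in NAcC (accumbens core). Arf5, a Golgi Arf, had 0.27, and Arf1, which recruits the COPI coat, had -0.29.

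Of the 10 coat, adaptor, cargo receptor and translocon members, 7 had positive medians. Both AP-3 subunits, which serve lysosome-related organelles, lay on this side, Ap3s2 at 0.62 and Ap3d1 at 0.56, each higher in FT in 88 of 96 pairs. The p24 cargo receptor Tmed9 had 0.44 and Sec62, a subunit of the translocon rather than of a vesicle coat, 0.42. The AP-2 complex of clathrin endocytosis was divided, with Ap2s1 at 0.25, Ap2m1 at 0.21 and Ap2a1 at -0.47. Copg1 of COPI had 0.04, Ap1m1 of the trans-Golgi AP-1 complex -0.27 and Sec23a -0.92.

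The 3 TRAPP subunits gave 0.31 for Trappc6a, 0.17 for its paralog Trappc6b and -0.43 for Trappc2. Of the 5 SNAREs, 3 had positive medians: the endosomal Vamp8 (0.44), the plasma membrane syntaxin Stx4 (0.41) and the trans-Golgi syntaxin Stx16 (0.32). The late endosomal Stx7 had -0.57. All 3 synaptotagmins had negative medians, from Syt5, a calcium sensor, at -0.16 through Syt4, which does not respond to calcium in the same way, at -0.26 to Syt11 at -0.74.

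The 8 sorting nexin, VPS and ESCRT members spanned nearly the whole range. Vps37c had 0.64 and Snx8 0.63, followed by the ESCRT-III-like Chmp7 (0.37), Snx4 of endosomal recycling (0.31) and the retromer subunit Vps29 (0.25). The lipid transfer protein Vps13a had -0.30, Snx12 -0.56 and Snx10 -0.67.

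**Figure D1:**
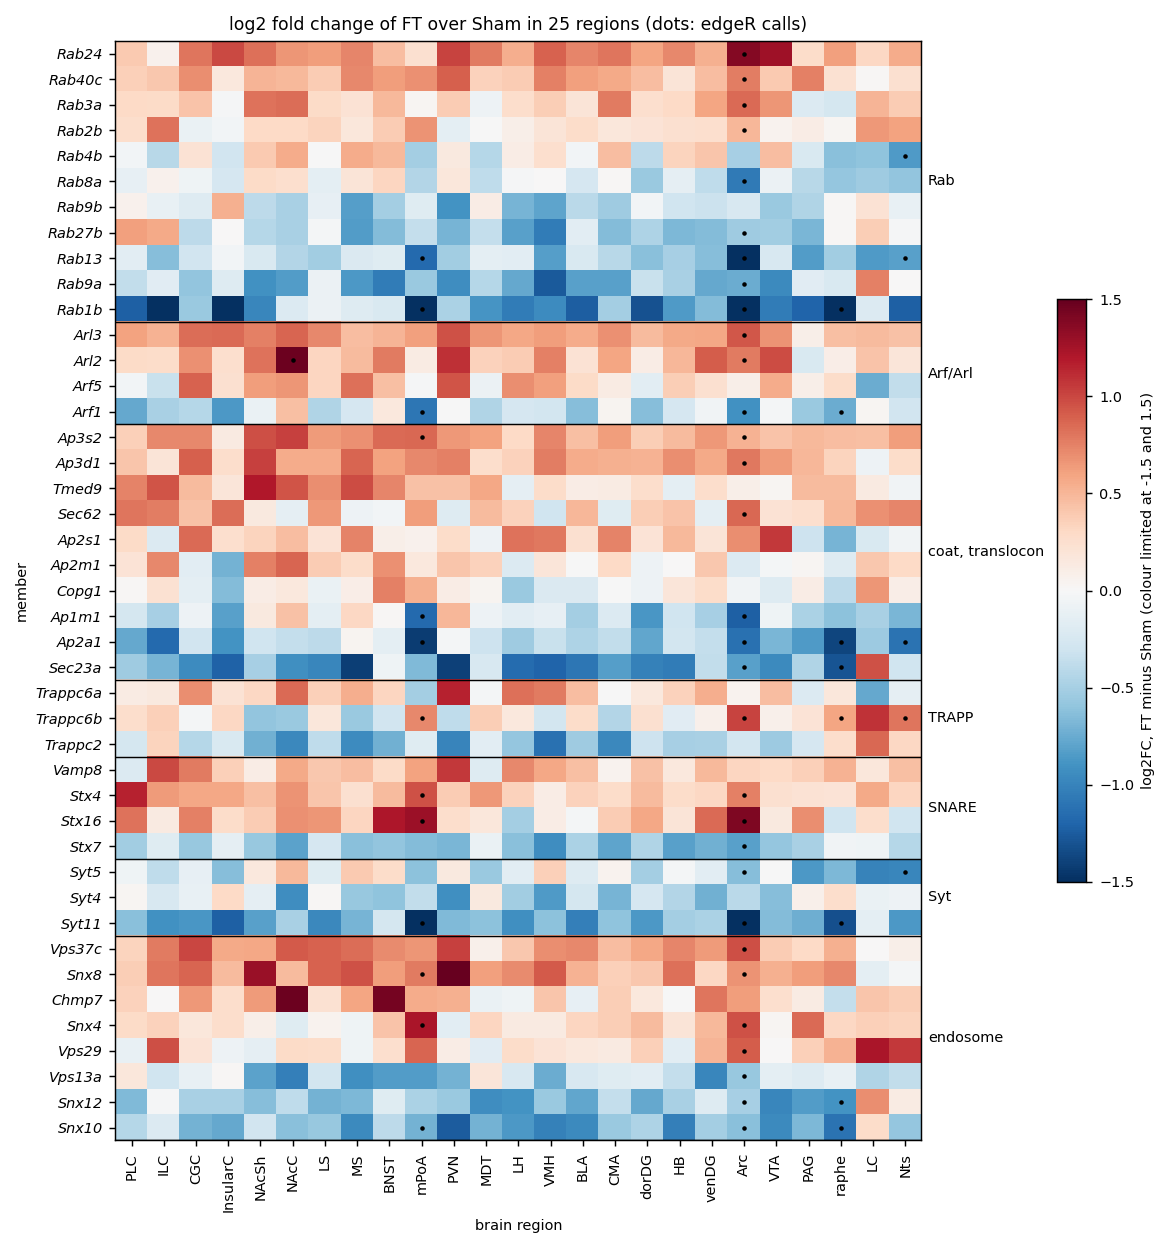
Heat map of the log2 fold change of FT over Sham, with 43 of the members in rows grouped by role and the 25 regions in columns. Colour is limited at -1.5 and 1.5 on the log2 scale, and dots mark the 58 of these combinations called by edgeR. Rab24 and Vps37c are above 0 in every region and Rab1b and Syt11 below 0 in every region, and most dots lie in the Arc and mPoA columns.

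By region, edgeR and DESeq2 placed the calls differently. With edgeR, Arc gave 16 members higher and 16 lower, where 13.7% and 10.8% of all its transcripts were called, and mPoA gave 6 and 8, with 4.85% and 4.74%. Both rest on 2 pairs only, those of replicates 4 and 5. In Arc the values ran from 1.40 ± 0.24 (SE) for Stx16 and 1.38 ± 0.19 for Rab24 to -1.68 ± 0.39 for Rab1b and -1.66 ± 0.18 for Syt11. In mPoA they ran from 1.29 ± 0.30 for Stx16 to -1.73 ± 0.39 for Rab1b. The raphe had 1 higher and 7 lower, with 3.08% and 3.51% of transcripts. Nts had 1 higher and 4 lower, with 1.80% and 2.36%. It had 0 and 0 without replicate 3, whose Sham library had 4586 reads, and also without replicate 4 or replicate 5, but 10 and 16 without replicate 1. NAcC had Arl2 alone, with 0.0762% and 0.152% called, and lost it without replicate 3, 4 or 5. The other 20 regions had none with edgeR, with 0.0247% and 0.0146% of transcripts called. DESeq2 called members in 19 of these 20 regions, all but MDT (dorsomedial thalamus), in 58 combinations higher and 59 lower beside 0.925% and 0.614% of transcripts, and 149 of its 177 calls lay outside Arc and mPoA.

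The direction often depended on the replicate number. For each pair the log2 ratio of FT to Sham CPM (reads of a transcript relative to those of its library, scaled by TMM, prior count 2) was taken, and its median over regions was compared between numbers. In 19 of the 44 members this median had the same sign in all 4 numbers, positive in 10 and negative in 9. Shares over all transcripts were not computed for this or for the reversals below. Neither can therefore be called particular to the members. Snx10 was lower throughout, with medians of -0.49, -0.66, -0.70 and -0.73 in replicates 1, 3, 4 and 5, and Ap3s2 was higher throughout, with 0.59, 0.56, 0.70 and 0.49.

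Other members reversed between replicates 1 and 3 on one side and 4 and 5 on the other. Ap1m1 had medians of 0.58 and 0.48 in replicates 1 and 3 but -0.71 and -1.27 in replicates 4 and 5. Rab13 had 0.23 and 0.29, then -0.98 and -1.09. This pattern, positive in 1 and 3 and negative in 4 and 5, held for 7 members, among them Ap1m1, Ap2a1, Arf1, Rab13, Rab8a and Syt5. The converse held for 6, Sec62, Snx4, Stx16, Stx4, Trappc6b and Vps29, and Vps29 had -0.38, -0.24, 0.43 and 1.09.

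For some of the lowest members the median over regions was far lower in replicates 4 and 5 than in 1 and 3. Syt11 had medians of 0.02 and -0.03 in replicates 1 and 3 and of -1.33 and -1.47 in replicates 4 and 5, where FT was lower in 25 of 25 regions in each. Rab1b had -0.25 and 0.02, then -1.57 and -1.54. In the members with negative medians the ratio over all pairs had a median of -0.05, 0.02, -0.68 and -0.73 in replicates 1, 3, 4 and 5, and in those with positive medians of 0.19, 0.25, 0.62 and 0.49. What set replicates 4 and 5 apart was not tested. In bulk tissue, fewer cells of a type and less RNA per cell cannot be told apart.

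**Figure D2:**
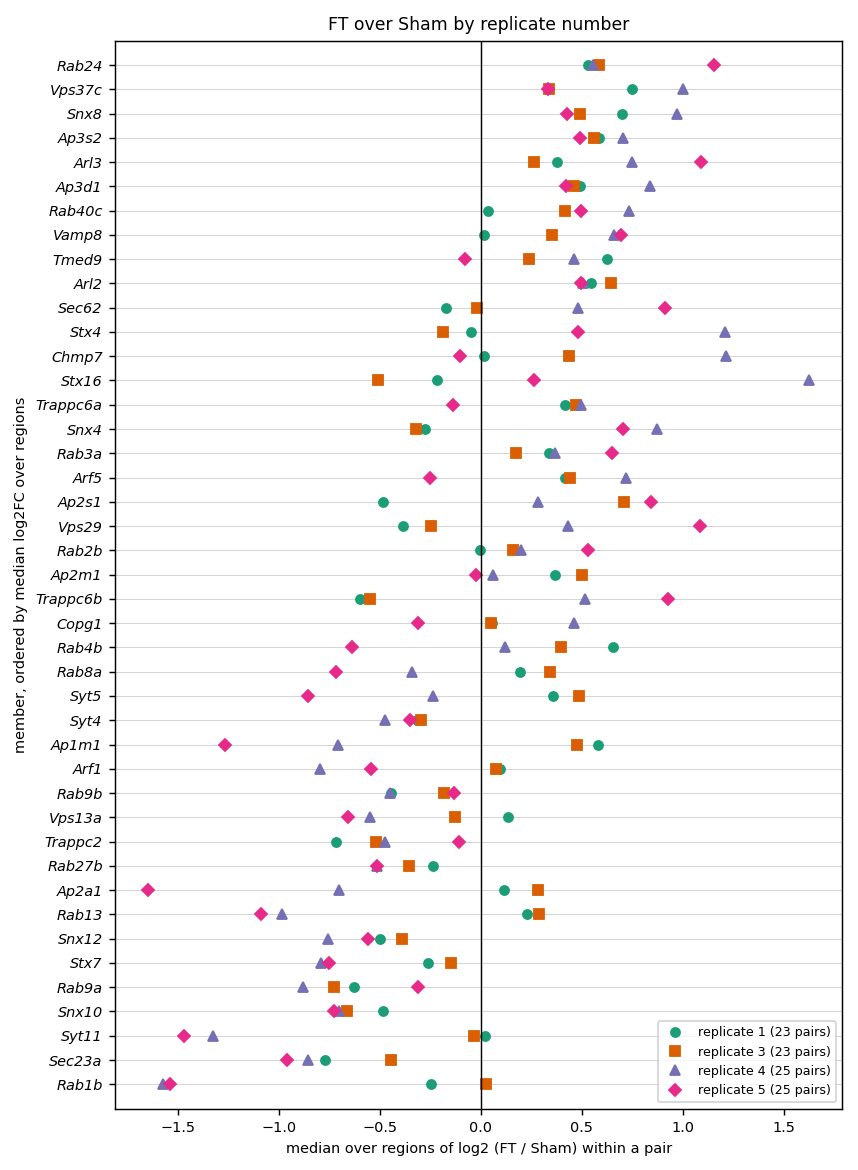
Median over regions of the log2 ratio of FT to Sham within a pair (horizontal axis) for 43 of the members (vertical axis, ordered by median log2FC), with 1 symbol per replicate number. The symbols of Snx10 lie together below 0 while those of Ap1m1 stand at 0.58 and 0.48 for replicates 1 and 3 and at -0.71 and -1.27 for replicates 4 and 5.

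The raphe, where most serotonin neurons of the brain lie, had the most edgeR calls among regions with all 4 pairs. With DESeq2 it had 2 members called higher and 10 lower, beside 2.80% and 2.84% of transcripts, fewer in all than the medial septum (16) or the centromedial amygdala, lateral hypothalamus and NAcC (13 each). Its libraries are given member by member in CPM scaled by TMM within the region, in the order of replicates 1, 3, 4 and 5. Rab1b had 4.74, 14.8, 10.0 and 11.1 CPM in Sham and 0.88, 15.1, 1.82 and 1.69 in FT. FT was lower in 3 of 4 pairs, replicate 3 being the exception, and the groups overlapped (log2FC -1.89 ± 0.45, SE). Rab24 had 38.8, 40.2, 22.8 and 15.5 CPM in Sham and 47.2, 50.005, 52.9 and 24.3 in FT. It was higher in all 4 pairs, with overlapping groups (0.62 ± 0.20).

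The synaptic vesicle GTPase Rab3a had 751, 1267, 623 and 144 CPM in Sham and 538, 786, 657 and 149 in FT. Its spread between replicates far exceeded its log2FC of -0.26 ± 0.21. Rab9a had 13.5, 15.1, 27.1 and 37.5 CPM in Sham and 15.2, 18.0, 19.0 and 22.98 in FT. Its paralog Rab9b had 48.3, 55.3, 66.1 and 86.3 in Sham and 69.9, 86.4, 48.9 and 55.0 in FT. Both Rab9 paralogs were higher in FT in replicates 1 and 3 and lower in replicates 4 and 5, so their log2FC were -0.23 ± 0.21 and 0.01 ± 0.24.

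Among the coat members, Sec23a had 16.1, 11.9, 46.3 and 40.3 CPM in Sham and 6.22, 5.34, 15.5 and 19.9 in FT. It was lower in every pair and, because both groups split by replicate number, the groups still overlapped (-1.29 ± 0.19). Ap3s2 had 90.9, 55.3, 75.8 and 65.4 CPM in Sham and 142, 50.005, 111 and 108 in FT, higher in 3 of 4 pairs (0.46 ± 0.18).

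The tether subunit Trappc6b had 28.2, 24.01, 33.5 and 44.1 CPM in Sham and 38.1, 28.6, 62.8 and 71.9 in FT. It was higher in all 4 pairs and was the only member called higher in the raphe (0.59 ± 0.17). Trappc6a, its paralog, had 13.1, 21.6, 6.62 and 2.00 CPM in Sham and 12.7, 27.2, 4.85 and 4.01 in FT, with 2 pairs in each direction (0.17 ± 0.26).

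Of the synaptotagmins, Syt11 had 138, 140, 184 and 106 CPM in Sham and 48.3, 111, 53.7 and 35.6 in FT. It was lower in every pair, and only the FT library of replicate 3 entered the Sham range (-1.31 ± 0.24). Syt4 had 207, 191, 285 and 335 CPM in Sham and 399, 325, 243 and 248 in FT, and Syt5 had 59.3, 68.8, 26.0 and 9.05 in Sham and 35.0, 69.4, 9.58 and 6.23 in FT. Syt4 was thus higher in replicates 1 and 3 and lower in 4 and 5 (0.26 ± 0.26), and Syt5 was lower in 3 of 4 pairs (-0.68 ± 0.23).

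Among the endosomal members, Snx10 had 48.3, 32.9, 100.2 and 77.0 CPM in Sham and 27.9, 18.4, 31.4 and 36.5 in FT. It was lower in every pair (-1.11 ± 0.19). Snx8 had 22.2, 27.2, 16.0 and 11.7 CPM in Sham and 53.4, 25.2, 24.01 and 22.8 in FT, and Vps37c had 14.8, 18.9, 12.7 and 6.81 in Sham and 24.9, 15.5, 16.4 and 15.1 in FT. Both were higher in 3 of 4 pairs, replicate 3 going the other way (0.72 ± 0.23 and 0.54 ± 0.24).

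In all, 5 members were higher in all 4 raphe pairs and 10 lower in all 4, beside 13.8% and 15.2% of the transcripts tested there, and 22 had a positive log2FC. Snx12, named here after its values were seen, was the only member whose groups did not overlap, as those of 1.43% of transcripts did with FT lower. It had 13.5, 15.4, 16.2 and 17.9 CPM in Sham and 6.81, 5.83, 12.2 and 9.08 in FT (-0.89 ± 0.22). The remaining members called lower were Ap2a1 (-1.38 ± 0.31) and Arf1 (-0.74 ± 0.17). The 8 edgeR calls became 2 (Sec23a and Snx10) without replicate 1, 13 without replicate 3, 0 without replicate 4 and 1 (Sec23a) without replicate 5. Trappc6b also lost its call with median-ratio size factors.

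Some of the cell type markers available in the raphe differed between the groups and others hardly did. Th, the catecholamine enzyme, ranged from 2.70 to 179 CPM in Sham and from 2.05 to 32.8 in FT, Gad2 of GABA neurons from 46.4 to 56.8 and from 19.0 to 42.2, and Ttr of the choroid plexus from 38.3 to 403 and from 9.10 to 75.2. The summed level of 3 of 9 microglial markers with a named transcript ranged from 56.1 to 103 CPM in Sham and from 107 to 147 in FT. The sum of 5 of 14 oligodendrocyte markers ranged from 580 to 1132 and from 628 to 964, and that of 4 of 10 neuronal markers from 1355 to 6269 and from 1331 to 4682, and the ranges of both sums overlapped. Within the neuronal sum Tubb3 had a log2FC of -1.11 ± 0.21 and Sncb 0.11 ± 0.25. Slc17a6, 1 of 2 markers of excitatory neurons, ranged from 62.2 to 153 CPM in Sham and from 116 to 145 in FT (0.57 ± 0.21). The 1 of 7 astrocyte markers ranged from 190 to 334 and from 197 to 316. None of the 3 serotonergic or 5 endothelial markers had a named transcript, so the label of the raphe could not be checked with serotonergic genes. The part of these cell types in the members' values was not tested.

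**Figure D3:**
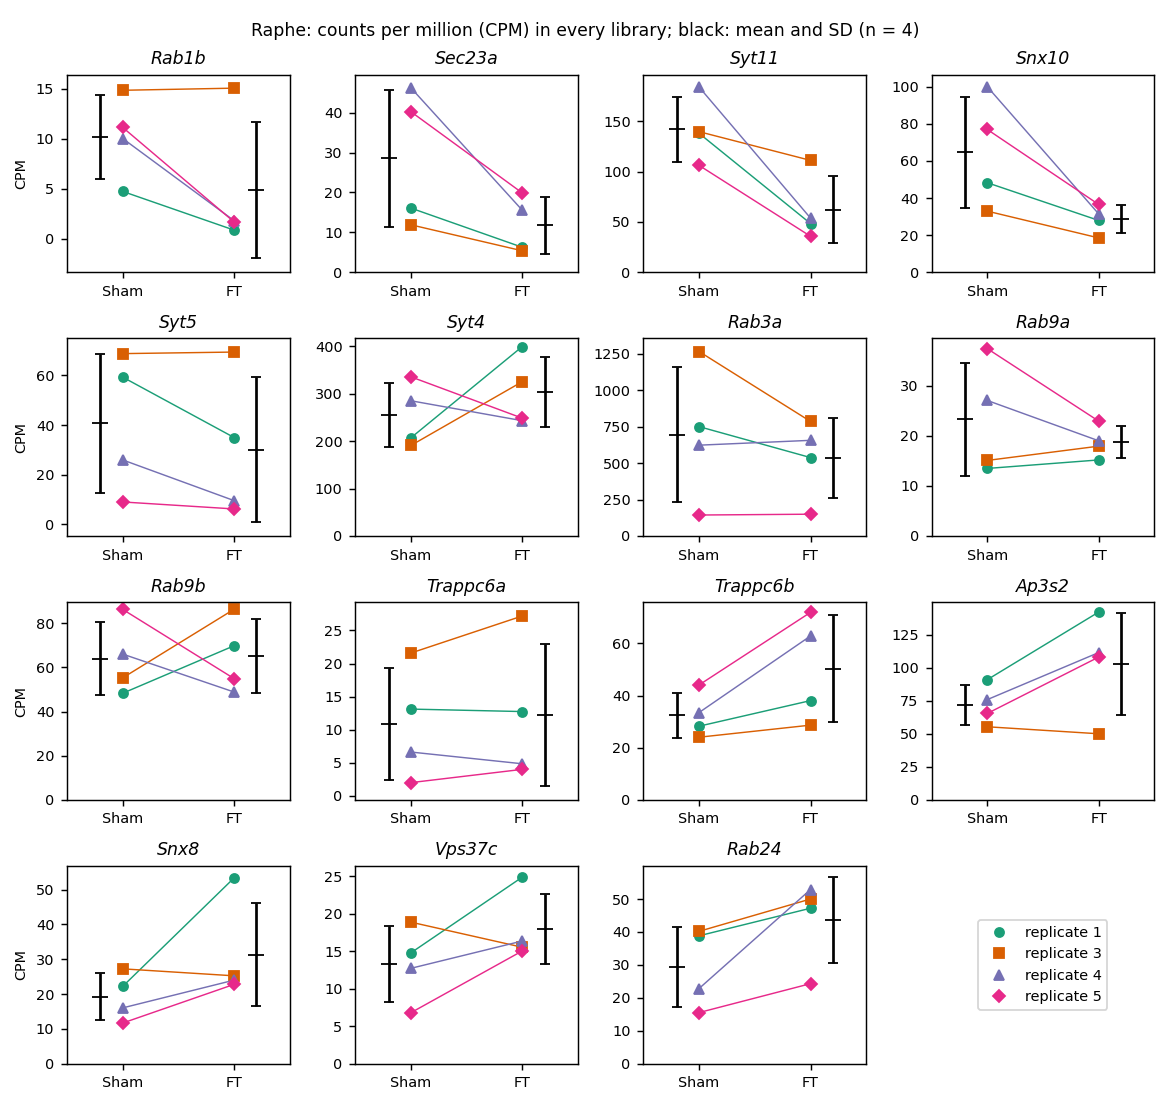
CPM (vertical axes) of 15 members in the 8 raphe libraries, with Sham on the left and FT on the right of each panel, lines joining libraries of the same replicate number and black bars for mean and SD (n = 4). Lines fall in all 4 pairs for Sec23a, Syt11 and Snx10 and rise in all 4 for Rab24 and Trappc6b, whereas those of Rab9a and Rab9b cross.

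LC, the noradrenergic nucleus, had the most members whose direction differed from that in other regions. The sign of the log2FC was opposite to the median of the other regions in 14 of the 44 members, against 2 (venDG, ventral dentate gyrus) to 12 (MDT) in the rest. The share of all transcripts with an opposite sign was not computed, so the count cannot be called particular to the members. Of the 14 members, 8 were lower elsewhere and higher in LC, and 6 were the reverse. Sec23a had 1.34, 5.32, 21.0 and 20.5 CPM in LC Sham and 26.5, 11.4, 19.0 and 14.2 in FT, for a log2FC of 0.95 ± 0.74 against a median of -0.94 in the other regions. It was higher in FT in replicates 1 and 3 and lower in 4 and 5. All 8 members were likewise higher in the pairs of replicates 1 and 3, with 0 higher in replicate 4 and 2 in replicate 5. Tissue makeup varied between the LC Sham libraries, where Ttr had 28018 ± 30360 CPM and Th 161 ± 145 (SD, n = 4). Its part in the direction of the members was not tested. With edgeR no member was called in LC, where 0.0235% of transcripts were called higher and 0 lower. DESeq2 called 4 members higher and 2 lower there, beside 2.01% and 1.34% of transcripts, and edgeR called 6 without the filter on low counts and 2, Trappc6b and Vps29, with median-ratio size factors.

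Other genes of the pathway, 45 transcripts from the same list with names outside the symbols used here, served as a comparison. Among them were ARL6, COPE and SYT17, whose names are written in capitals. The 45 were picked by name rather than by a rule, and the contrast of FT and Sham lay behind them too. They had 20 positive and 25 negative medians and a median of medians of -0.13. In 1106 combinations of transcript and region, edgeR called 31 higher and 51 lower, while over all transcripts it called 1.01% and 0.913%. Nothing is read from these counts. The highest were Rabl3, a Rab-like GTPase, at 1.08 and Srp9, a subunit of the signal recognition particle, at 0.91. The lowest were Napb, which takes apart spent SNARE complexes, at -1.34 and the vesicle protein Sypl1 at -1.13.

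The differences between regions were tested in the Sham libraries alone, with the replicate number as a block in edgeR. With 96 libraries, 36 of the 44 members differed between regions at an adjusted p of at most 0.1, a share to be read against 75.2% of the 17008 transcripts tested. In the FT libraries 33 members passed, beside 80.4% of transcripts. The 8 that did not pass were Ap2a1, Arf1, Arl3, Chmp7, Rab1b, Rab3a, Stx16 and Syt11. In the contrasts below, samples of several regions share 4 replicate numbers and were counted as separate libraries. The p-values measure the spread between pools of punches that is left after region and replicate number, taken over all regions together. They do not measure the spread between animals.

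Levels also differed widely between replicate numbers within Sham. Ap2s1 had a median of 10.5, 191, 7.14 and 6.46 CPM over regions in replicates 1, 3, 4 and 5, a 29.6-fold range. Arf5 had a 12.9-fold and Ap2a1 a 12.3-fold range, all 3 with their highest medians in replicate 3. At the stable end Vps13a ranged 1.09-fold and Rab40c 1.32-fold. The paralogs differed in this as well, Rab9b by 1.52-fold against 1.76-fold for Rab9a and Trappc6b by 1.43-fold against 9.65-fold for Trappc6a.

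**Figure D4:**
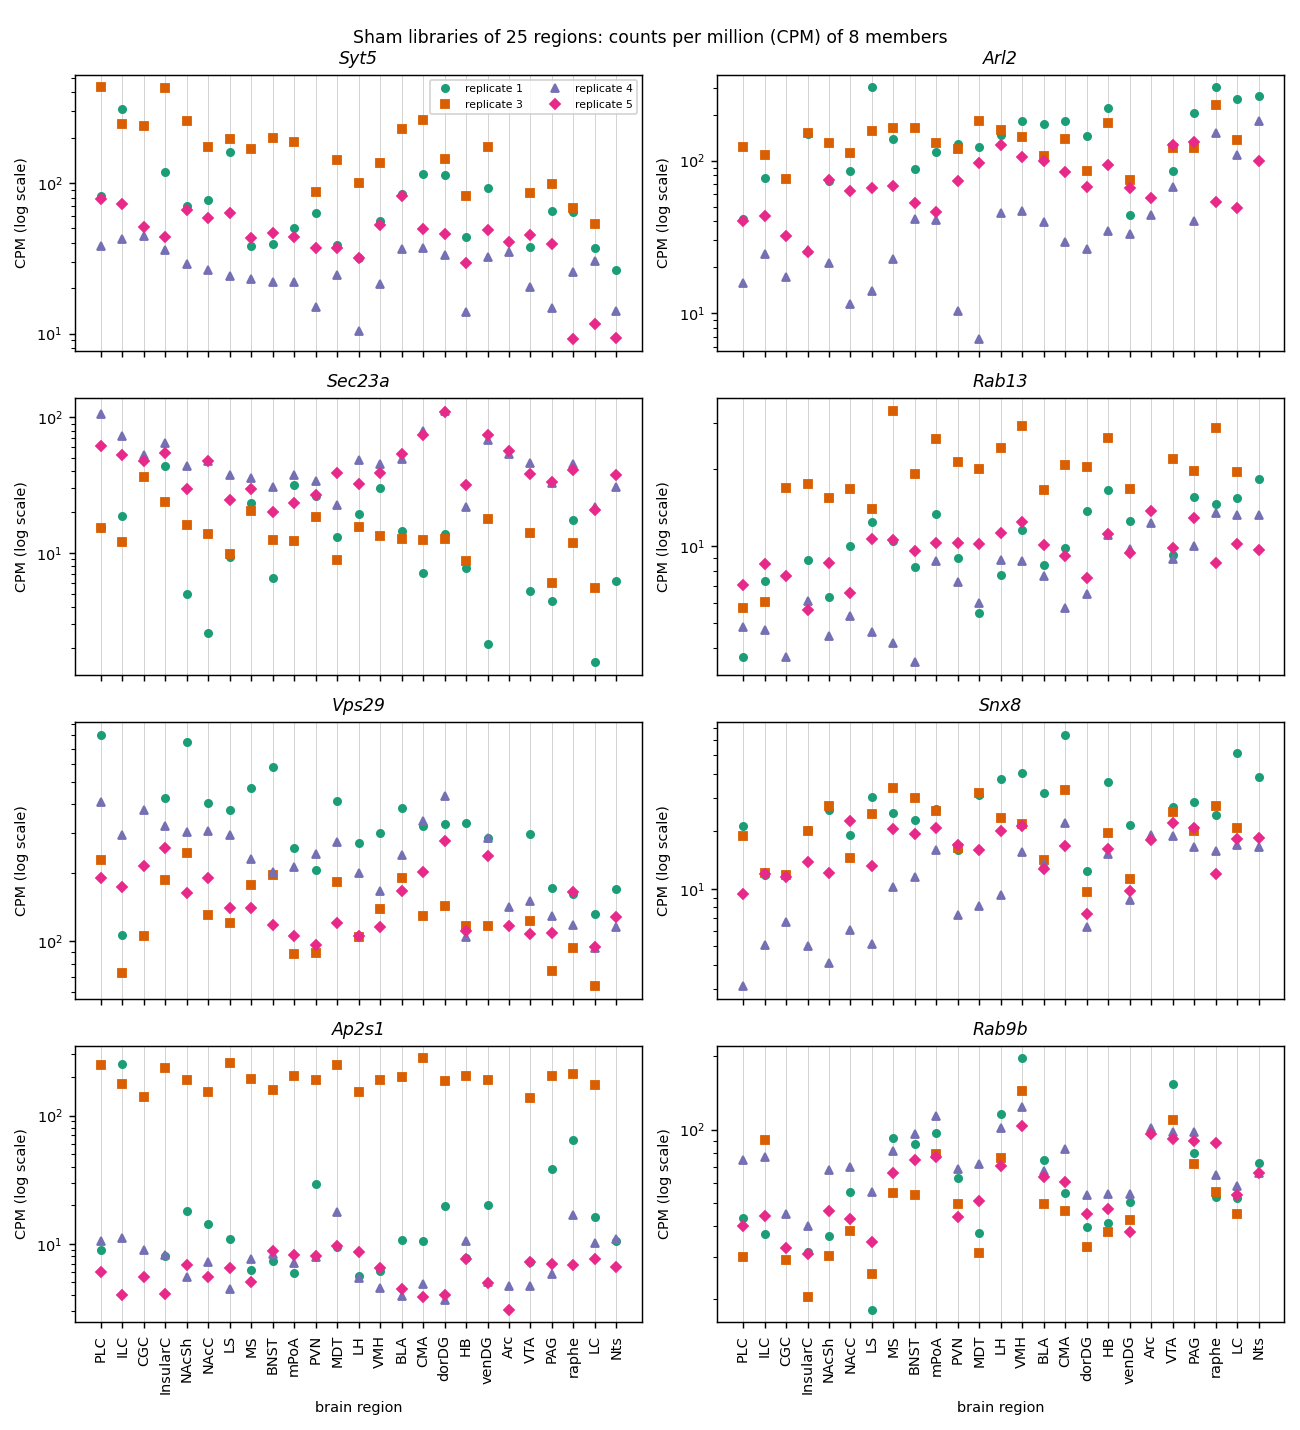
CPM on a log scale (vertical axes) of 8 members in the Sham libraries of 25 regions (horizontal axes), 1 symbol per replicate number. Syt5 is high in cortex and low in Nts, Rab9b is highest in VMH, and the replicate 3 symbols of Ap2s1 sit far above those of replicates 4 and 5.

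Cortex (PLC, ILC, CGC and InsularC: prelimbic, infralimbic, cingulate and insular) was first set against brainstem (PAG, periaqueductal grey, raphe, LC and Nts), with 15 libraries each. Of the members 13 were higher in cortex and 15 lower, 29.5% and 34.1%, against 27.1% and 30.6% of all transcripts. Syt5 had a low, median and high of 35.7, 78.0 and 434 CPM in cortex and of 9.25, 30.6 and 98.6 in brainstem, the largest excess in cortex (log2FC 1.66 ± 0.18, edgeR quasi-likelihood test, Benjamini-Hochberg adjusted p = 7.82e-13, higher in 4 of 4 replicate numbers). Sec23a had 12.1, 48.0 and 107 CPM in cortex and 1.57, 20.9 and 45.6 in brainstem (1.34 ± 0.24, edgeR adjusted p = 1.28e-06, 4 of 4). The retromer subunit Vps29 had 72.6, 227 and 807 CPM against 63.8, 118 and 172 (1.14 ± 0.15, edgeR adjusted p = 2.92e-10, 4 of 4). The ranges overlapped for all 3, since levels shifted with the replicate number, but within each number cortex was higher.

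The largest deficits in cortex were those of Arl2, Rab13 and Snx8. Arl2 had 15.7, 41.1 and 151 CPM in cortex and 40.5, 136 and 302 in brainstem (-1.65 ± 0.24, edgeR adjusted p = 5.67e-09, lower in 4 of 4). Rab13 had 3.70, 6.11 and 17.5 CPM against 8.60, 13.5 and 28.8 (-1.03 ± 0.14, edgeR adjusted p = 4.39e-10, 4 of 4). Snx8 had 3.09, 11.8 and 21.4 CPM against 11.96, 20.1 and 51.3 (-0.99 ± 0.16, edgeR adjusted p = 9.19e-08, 4 of 4). By role, 6 of 11 Rabs were lower and 2 higher in cortex, 3 of 5 SNAREs were lower and 1 higher, and 2 of 3 synaptotagmins were higher and none lower.

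In the FT libraries 8 of the 13 and 7 of the 15 were called in the same direction, where 25.1% and 25.2% of transcripts were called, and 0 of the 28 had the opposite sign. The 6 members named were all among those called again: Syt5 (2.33 ± 0.13), Sec23a (0.53 ± 0.23), Vps29 (0.57 ± 0.09), Arl2 (-1.31 ± 0.24), Rab13 (-0.48 ± 0.14) and Snx8 (-0.58 ± 0.11). Sec23a and Vps29 were thus closer between cortex and brainstem in FT, though this difference between the treatments was not tested.

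Cortex against hypothalamus (mPoA, LH, VMH and Arc: medial preoptic, lateral and ventromedial hypothalamus and arcuate nucleus; 14 libraries) gave 9 members higher and 10 lower, 20.5% and 22.7%, against 20.3% and 23.5% of all transcripts. Rab9b was the member most clearly lower in cortex, with a low, median and high of 20.4, 40.1 and 90.8 CPM and of 70.6, 102 and 196 in hypothalamus (-1.34 ± 0.11, edgeR adjusted p = 3.75e-17, lower in 4 of 4 replicate numbers). Its highest regional mean was in VMH, at 142 ± 40.1 CPM (SD, n = 4), followed by VTA (ventral tegmental area) at 113 ± 28.3 (SD, n = 4), levels that overlapped. Its paralog Rab9a, with medians of 25.7 and 30.7 CPM, was not called (-0.10 ± 0.15, edgeR adjusted p = 0.647). Snx8 (-1.02 ± 0.16, edgeR adjusted p = 1.10e-07, 4 of 4) and Rab13 (-0.90 ± 0.14, edgeR adjusted p = 6.33e-08, 4 of 4) were again lower in cortex.

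Higher in cortex than in hypothalamus were Syt5 (1.06 ± 0.19, edgeR adjusted p = 1.61e-06, 4 of 4) and Vps29 (0.74 ± 0.15, edgeR adjusted p = 3.32e-05, 4 of 4). Ap2s1 was called as well (0.93 ± 0.28, edgeR adjusted p = 0.00526), but in 3 of 4 replicate numbers, and it rested on the ILC Sham library of replicate 1, without which it had 0.36 ± 0.22 and an edgeR adjusted p of 0.204, over a range of 0.0017 to 0.498 among the alternatives. That ILC library was nearest to replicate 3, where Ap2s1 was counted most. In the FT libraries 7 of the 9 and 6 of the 10 were called in the same direction, with 22.0% and 22.7% of transcripts called, and 1 of the 19 had the opposite sign.

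Cortex against the dentate gyrus (dorDG and venDG, dorsal and ventral; 8 libraries) gave the fewest differences, 3 members higher and 5 lower, 6.82% and 11.4%, against 12.3% and 13.0% of transcripts. Syt5 (0.57 ± 0.21, edgeR adjusted p = 0.0415, 4 of 4), Snx12 (0.42 ± 0.18, edgeR adjusted p = 0.0921, 3 of 4) and Syt4 (0.40 ± 0.14, edgeR adjusted p = 0.0302, 4 of 4) were higher in cortex. Tmed9 (-0.69 ± 0.24, edgeR adjusted p = 0.0302), Ap1m1 (-0.63 ± 0.22, edgeR adjusted p = 0.0323) and Rab13 (-0.62 ± 0.16, edgeR adjusted p = 0.00162) were lower, in 4, 3 and 4 of the 4 numbers. All 6 lost the call without the block, with edgeR adjusted p from 0.221 to 0.679. Without replicate 4 Tmed9 had -0.16 and no call, and Ap1m1 and Syt4 lost their calls without replicate 4 or 5, Snx12 without 1 or 3, and Syt5 without replicate 3 or the ILC Sham library of replicate 1. In the FT libraries the 3 higher members were called again and 0 of the 5 lower ones were, where 13.1% and 11.4% of transcripts were called.

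The regions also differed in their cell type markers. The summed oligodendrocyte markers had medians of 196 CPM in cortex, 630 in brainstem, 494 in hypothalamus and 192 in dentate gyrus. Slc17a6, 1 of 2 markers of excitatory neurons, had 16.1, 137, 166 and 20.0. The other, Slc17a7, had no named transcript, so these levels do not measure excitatory neurons as a whole. Summed neuronal markers had medians of 1483, 2171, 1346 and 1645. The 4 markers in this sum went different ways, so it does not measure neurons as a whole. For cortex against brainstem the log2FC was -4.36 for Nefh, -1.09 for Tubb3, -0.94 for Sncb and 0.69 for Syp. Against hypothalamus it was -1.09, -0.30, 0.31 and 0.83 in the same order. Ttr reached 72243 CPM in 1 brainstem library, and among the brainstem regions its mean was highest in LC. The mean of Th was highest in VTA and LC, and it was at or below 2.51 CPM in all cortical libraries. The part of cell type makeup in the members' regional differences was not tested.

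**Figure D5:**
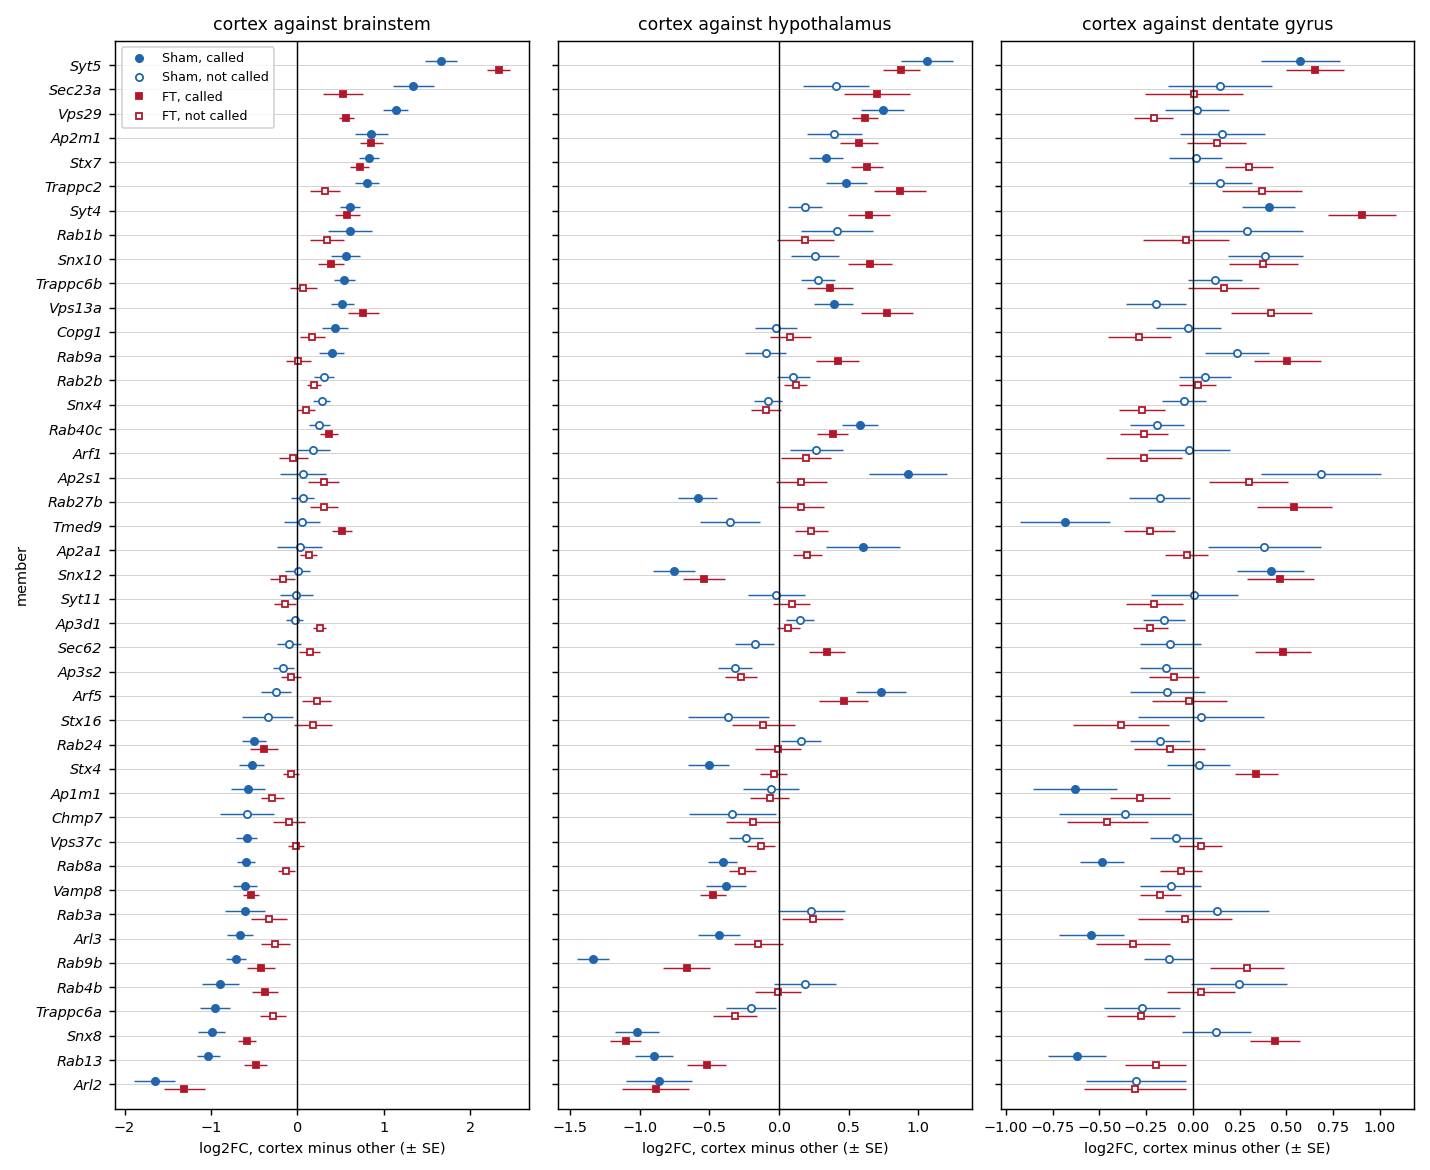
Log2 fold change of cortex over brainstem, hypothalamus and dentate gyrus (horizontal axes, ± SE) for 43 of the members (vertical axis), with Sham libraries as circles and FT libraries as squares, filled where called. Syt5 lies at the right in all 3 panels, at 1.66, 1.06 and 0.57 in Sham, and Rab13 at the left, at -1.03, -0.90 and -0.62.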

How the data were processed

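RNA from punch pools was sequenced as stranded total RNA libraries with paired 76 bp reads. The authors deposited raw read counts per Ensembl transcript, made with STAR alignment to rn5 and HTSeq after FastQC, without normalization. Versions and the strand setting of counting are not given in the sources used here, so reads of overlapping antisense genes cannot be told apart. Reads in no feature (median 40.3% of all) and ambiguous reads (5.52%) stayed out. The files list 0 reads as not uniquely aligned. Low counts limit precision in shallow libraries. Gene names came from the study's supplementary list, since no annotation of rn5 was used here, and markers could be matched only where that list named them. Samples of dorCA1 and venCA1 were not used here.

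The members and gene lists were chosen with earlier results of these data known. Libraries were grouped by region and treatment. Each region was fitted with edgeR 4.0.16 in R 4.3.3 (TMM, filterByExpr with a minimum count of 10 and total of 15, quasi-likelihood test, replicate block), adjusting p-values by Benjamini-Hochberg over all transcripts tested. Sham regions were fitted together in the same way, leaving out libraries under 100000 reads on transcripts and the CGC library of replicate 1. The standard error was taken from the log2FC and the quasi-likelihood F. The study processed the FT and Sham samples of a number in parallel, and deviations from group means of same-numbered libraries correlated (regional r between -0.02 in Arc and 0.80 in PAG, median 0.67). DESeq2 1.42.0, another normalization, filter and threshold, no block and leaving out replicates were tried as alternatives. The fits of the raphe and of Sham cortex against brainstem were run on simulated counts with 200 transcripts changed by a log2FC of 1. They recovered 172 with 17 false calls in the raphe and 200 with 24 between cortex and brainstem. The simulation had 1 spread for all transcripts and no shift between replicate numbers, so it cannot show how the fits handle such shifts.

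The members were described by role, except 1 that is not reported here. Raphe values in every library were given for the 4 highest and 4 lowest medians, the paralogs Rab9a, Rab9b, Trappc6a and Trappc6b, and Rab3a, Syt4, Syt5 and Syt11. For each Sham contrast the 3 called members with the largest difference in each direction were named. Promoters and motifs were read from RefSeq tables with Python 3.11.15.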

Additional observations from a re-analysis of the deposited data

Results flagged for a closer look

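In the raphe FT group of 4 libraries, 1 library lay far from the others for 3 members: Rab1b at 15.1 CPM in replicate 3, Snx8 at 53.4 CPM in replicate 1 and Vps37c at 24.9 CPM in replicate 1. These came from 32 groups examined, of which chance would single out about 1 in 20. That rate takes the groups as independent, which they are not, since all share the raphe libraries.

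For 4 members every pair of 1 region went against every pair of other regions, and these differences between regions were not tested. The share of all transcripts with such a pattern was not computed. In the raphe alone, 13.8% of transcripts were higher and 15.2% lower in all 4 pairs, so the pattern cannot be called particular to these members. Arf5 was lower in FT in every LC pair (log2FC -0.74) and higher in every pair of 6 regions. Copg1 was lower in every LH pair (-0.56) and higher in every pair of 3 regions. Rab2b was lower in every CGC pair (-0.10) and higher in every pair of 5 regions. Trappc2 was higher in every Nts pair (0.31) and lower in every pair of 10 regions, where the Nts value includes the Sham library of 4586 reads.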

How the results depend on the processing

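The 60 member calls between FT and Sham became 38 at an adjusted p of 0.05, 177 with DESeq2, 180 without a filter on low counts and 0 without the replicate block in edgeR (95 combinations at an unadjusted p under 0.05, against 407 with the block). Leaving out each replicate number in turn gave 2 to 80, with 2 without replicate 4 and 3 without replicate 5. In both, Arc and mPoA, which hold 46 of the 60 calls, could not be fitted, and the other 23 regions hold 14. In Nts 26 members were called without replicate 1. For the alternatives between FT and Sham other than DESeq2, the share of all transcripts called is not given here. The changes in member calls, those in the raphe, Nts and LC included, can therefore not be called particular to the members. In Sham, leaving the block out gave 9 members with any difference between regions (of 36), 17 between cortex and brainstem (of 28), 9 for hypothalamus (of 19) and 0 for the dentate gyrus (of 8, with 3 at an unadjusted p under 0.05 in edgeR). Over all 17008 transcripts, those with any difference fell from 12790 to 5444. Those higher and lower in cortex fell from 4604 and 5196 to 3317 and 3464 against brainstem. Against hypothalamus they fell from 3454 and 3999 to 2281 and 2431, and against the dentate gyrus from 2098 and 2211 to 872 and 905. FT libraries gave 17 for cortex against brainstem, and leaving out replicates gave 5 to 8 for the dentate gyrus, with 5 without replicate 4. The cause was not tested. The other 56 counts stayed within 1.5 times, among them all alternatives chosen after seeing the data: exchanging numbers 4 and 5 in the raphe, LC and Nts, and leaving out the ILC Sham library of replicate 1, the shallow libraries or Arc.

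Among the named Sham contrasts 234 values kept their direction and call under an alternative, 24 lost the call and 0 reversed. The differences from brainstem and hypothalamus that were named kept the call in every alternative run, except that of Ap2s1. Its edgeR adjusted p, over a range of 0.0017 to 0.498, missed the threshold without the block (log2FC 1.40), without replicate 1 (0.33), in FT libraries (0.16) and without the ILC library (0.36). All 6 differences from the dentate gyrus lost the call without the block, with edgeR adjusted p from 0.221 to 0.679. Leaving out 1 replicate number ended the call of Tmed9 (number 4, -0.16), Ap1m1 (4 or 5), Syt4 (4 or 5), Snx12 (1 or 3, 0.26 without 1) and Syt5 (3, 0.37), and leaving out the ILC library ended that of Syt5 (0.43). Depth limits the members with a few reads in the shallow libraries.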
